A study of Mus musculus with 48 samples.

Results

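The genes described here make cholesterol and fatty acids. They are 32 genes chosen by name: the enzymes from acetyl-CoA to cholesterol, the enzymes that build, desaturate and lengthen fatty acids, and the proteins that sense and move sterols. Of these, 31 had a row among the 21025 gene models measured, each exactly 1 row, and Hmgcs1 was not analysed here. All 31 passed the filter on low values in both fits. Messenger RNA was measured in 30 mouse libraries, and the other 18 samples of the series, chromatin immunoprecipitation libraries, were not analysed here. The files give gene names in capitals (ACAT2, SREBF1, SCAP, FADS1), written here in the usual mouse form. The series asks what Ikaros, a DNA-binding protein made from Ikzf1, does at successive stages of early B-cell development.

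Cells make cholesterol by condensing acetyl-CoA into mevalonate, turning mevalonate into isoprenoid units, joining these into squalene, and closing and trimming squalene into cholesterol. Fatty acid synthesis starts from the same acetyl-CoA. Both pathways are known to be switched on by the SREBP factors, encoded by Srebf1 and Srebf2. The escort protein Scap carries SREBPs to the Golgi for cleavage when membrane sterol is low, and the Insig proteins hold Scap back when it is high. Dividing lymphocytes are known to draw on these pathways for membrane.

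All mice were of strain C57BL/6, and ages are not given in the sources used here. Control pro-B cells were Ikzf1(fl/+) Cd79a(Cre/+) and deleted pro-B cells Ikzf1(fl/-) Cd79a(Cre/+), so both groups carry 1 floxed allele and the Cre recombinase, which is driven by the B-lineage gene Cd79a. Total pro-B cells and c-Kit-high pro-B cells each gave 2 control and 2 deleted libraries, c-Kit being a receptor of early progenitors. The next set, called Rag2-null here, had the same genotypes with Rag2(-/-) added in controls and deleted cells alike, which blocks assembly of the antigen receptor genes, again with 2 libraries per group. Wild-type pre-B cells, the stage after pro-B, gave 2 libraries. Pre-pro-B cells of genotype Ebf1(-/-), which lack a factor needed for B-lineage commitment, carried an empty vector, the control hairpin Ren713, or 1 of 2 hairpins named for Ikaros, Ik4056 and Ik2709, with 4 libraries each and the Ebf1 loss shared by all 16. Whether libraries of a group came from separate animals or cultures is not stated, so the spread behind each p-value is that between these libraries and may be technical.

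Implied depth ran from roughly 2.3 to 36.5 M reads in the 26 libraries that allowed an estimate, and c-Kit-high control replicate 2 was the shallowest. Ikzf1 RNA was 59.2 and 56.4 RPKM in total pro-B controls and 45.3 and 48.9 RPKM after deletion, a difference that was not called (limma, adjusted p = 0.178). It was called lower in the c-Kit-high deleted cells (log2 difference -0.58, adjusted p = 0.0144), the Rag2-null deleted cells (-0.62, adjusted p = 0.00893) and the knock-down (-1.57, adjusted p = 6.54e-06). Which part of the gene is floxed is not given in the labels, so RPKM over the whole gene does not check the deletion. Kit was 18.7 to 20.9 RPKM in total pro-B controls and 34.2 to 39.2 RPKM in c-Kit-high controls. The pre-B libraries held 8 of 8 granulocyte genes at a summed 7519 to 7779 RPKM, beside B-lineage genes at a summed 4375 to 4766 RPKM. In the Ebf1(-/-) pre-pro-B libraries the 10 B-lineage genes summed to 54.8 to 157 RPKM. In these bulk libraries, fewer cells of a type and less RNA per cell cannot be told apart.

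**Figure D1:**
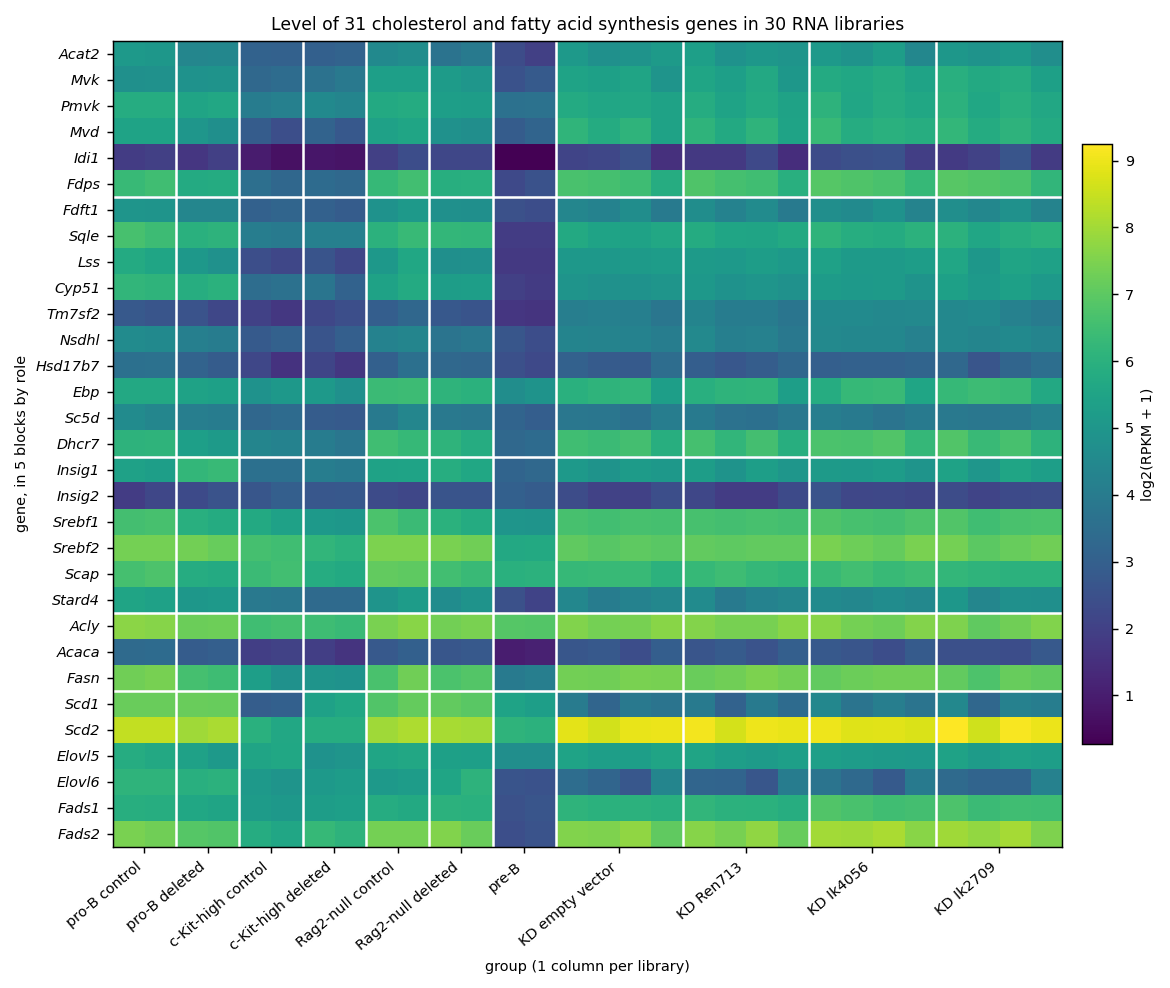
Level of each of the 31 genes (rows, in 5 blocks by role) in each of the 30 libraries (columns, by group), as log2(RPKM + 1). Both c-Kit-high groups and the pre-B libraries are darker than the other pro-B libraries in most rows, and Scd1 is brighter in the 2 c-Kit-high deleted libraries than in their 2 controls.

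RPKM scales reads by gene length and by library size, so levels of different genes can be set beside each other. By the median over all 30 libraries, of which 16 are of the knock-down series, Scd2, a stearoyl-CoA desaturase that puts the first double bond into fatty acids, was the highest member, with a median of 392 RPKM and a range of 49.0 to 607 RPKM. Fads2, a desaturase that starts the making of long polyunsaturated fatty acids, had a median of 170.3 RPKM and the range 4.34 to 277 RPKM. Acly, which makes cytosolic acetyl-CoA from citrate, ranged from 80.7 to 205 RPKM, its highest library 2.54 times its lowest. The order differed between groups: in c-Kit-high controls the means of Acly (92.8 RPKM), Srebf2 (92.6 RPKM) and Scap (87.8 RPKM) lay above that of Scd2 (55.1 RPKM), and in pre-B cells that of Acly (115 RPKM) lay above that of Scd2 (66.7 RPKM). Summed over the 31 genes, the level was 2303 to 2330 RPKM in total pro-B controls, 2051 to 2255 RPKM in Rag2-null controls, 751 to 787 RPKM in c-Kit-high controls and 540 to 542 RPKM in pre-B cells. The sum of the total pro-B controls was the highest of these 4 groups, each of 2 libraries. In the knock-down series the sums ran from 1957 to 2567 RPKM.

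Compared with total pro-B controls, c-Kit-high pro-B controls had less RNA of nearly every member. Of 31 genes, 28 were lower, 1 was higher and 2 were not called, with a median log2 difference of -1.64. Over all 11937 genes tested, 23% were called lower and 27.8% higher (50.8% in either direction), and the median log2 difference was 0.08. Called means an adjusted p (Benjamini-Hochberg, all genes tested) under 0.05, and log2 differences are on the log2(RPKM + 1) scale throughout. All 6 measured mevalonate enzymes, all 10 enzymes from squalene to cholesterol and all 3 enzymes of fatty acid synthesis were lower.

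Lss, lanosterol synthase, which closes squalene into the sterol ring, was at 52.7 and 46.4 RPKM in the total pro-B controls and at 4.40 and 3.60 RPKM in the c-Kit-high controls. The means were 12.4-fold apart (log2 difference -3.34 ± 0.19 SE, adjusted p = 2.94e-07). Fdps, which makes farnesyl diphosphate, read 78.3 and 88.7 RPKM against 10.7 and 8.77 RPKM, a log2 difference of -2.98. Mvd, the mevalonate decarboxylase, read 43.8 and 43.6 RPKM against 6.40 and 4.38 RPKM, a log2 difference of -2.83 (adjusted p = 4.94e-07). In each of these genes both c-Kit-high libraries lay far under both total pro-B libraries. Cyp51, the lanosterol demethylase, fell from 72.1 and 67.8 RPKM to 10.2 and 11.3 RPKM (log2 difference -2.60, adjusted p = 1.37e-06). Squalene monooxygenase, Sqle, fell from 98.4 and 85.5 RPKM to 16.0 and 14.9 RPKM. Dhcr7, the reductase of a last step, read 67.2 and 68.1 RPKM against 19.5 and 18.2 RPKM. The smallest called fall among the sterol enzymes was that of the isomerase Ebp, from 50.5 and 50.8 RPKM to 27.6 and 32.4 RPKM (log2 difference -0.74).

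The fatty acid genes fell as well, Scd1 most of all 31. Scd1, a stearoyl-CoA desaturase like Scd2, was at 146 and 144 RPKM in total pro-B controls and at 6.64 and 7.14 RPKM in c-Kit-high controls, 21.1-fold lower (log2 difference -4.21 ± 0.12 SE, adjusted p = 2.20e-09). Scd2 went from 342 and 341 RPKM to 61.3 and 49.0 RPKM. Reads of near-identical copies could be shared in the authors' counting, so the split between Scd1 and Scd2 is uncertain; the other 2 copies, Scd3 and Scd4, reached at most 0.742 and 0.778 RPKM in any of the 30 libraries. Fasn, the fatty acid synthase, went from 156 and 167 RPKM to 38.7 and 27.1 RPKM (log2 difference -2.28, adjusted p = 3.94e-06). Elovl5, an elongase, was not called, at 55.8 and 51.0 RPKM against 44.4 and 48.1 RPKM.

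Among the sensors, Insig2 was the only member higher in c-Kit-high controls, at 5.44 and 7.01 RPKM against 2.63 and 3.59 RPKM (log2 difference 0.81, adjusted p = 0.00254). Its paralog Insig1, itself a known SREBP target, read 11.0 and 11.1 RPKM against 41.7 and 38.6 RPKM. Srebf1 fell from 92.9 and 97.95 RPKM to 52.0 and 41.7 RPKM, and Srebf2 from 164 and 166 RPKM to 95.1 and 90.1 RPKM. The Srebf genes thus differed less between total and c-Kit-high controls than most of the enzymes did, with log2 differences of -1.02 and -0.83. Scap was not called, at 96.1 and 106 RPKM against 83.5 and 92.0 RPKM.

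These 29 calls were made again in every alternative fit tried for this comparison. The 8 granulocyte genes summed to 0.403 to 0.625 RPKM in total pro-B controls, where 6 of them were listed at 0, and to 105 to 679 RPKM in c-Kit-high controls; all 8 were called higher. Of the other marker lists, 8 of 10 B-lineage genes, 3 of 6 monocyte genes and 2 of 5 erythroid genes tested were called higher, and of 6 endothelial and stromal genes 2 were higher and 3 lower. Of 16 genes of dividing cells tested, 10 were lower in c-Kit-high controls, with sums of 1818 to 1989 RPKM against 2673 to 2845 RPKM. Il7r, the receptor of the pro-B growth factor IL-7, was at 7.93 to 8.49 RPKM in total pro-B controls and 71.3 to 97.2 RPKM in c-Kit-high controls. The part of these genes in the result was not tested. The library numbers of the c-Kit-high controls also differ from those of the total pro-B libraries; c-Kit-high deleted replicate 1, whose number adjoins theirs, had a members' sum of 754 RPKM, and the other deleted c-Kit-high library one of 717 RPKM. How the cells of either kind were obtained or kept is not given in the labels and cannot be told apart from the c-Kit gate.

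**Figure D2:**
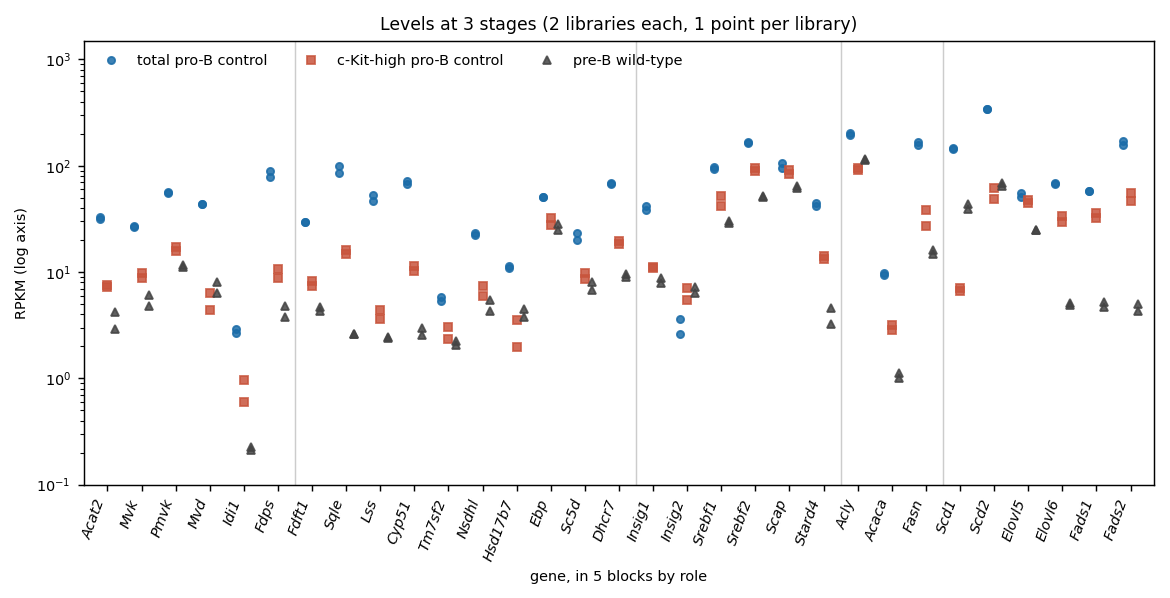
RPKM on a log axis for each member in total pro-B controls, c-Kit-high pro-B controls and wild-type pre-B cells, 1 point per library and 2 libraries per group. For Lss, Mvd and Fdps the total pro-B points lie far above those of both other groups, and for Scd1 the pre-B points lie above the c-Kit-high ones.

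Since so many members fell together, their promoters were read from RefSeq (build GRCm38.p6, which is not the build of the expression files). A window from 250 bases before to 50 bases after the annotated start was found for 24 members, 32 windows in all with alternative starts. Motifs were looked for on both strands. The letters CCAAT, bound by NF-Y, a known partner of SREBPs, occurred in 20 of 32 windows (62.5%), beside 37.4% of all 32851 windows of that length. The E-box CACGTG occurred in 21.9% of the members' windows and in 7.15% of all windows. The Ikaros core TGGGAA occurred in 31.2% and 25.6%. The sterol regulatory element consensus TCACNCCAC was in 0 of the 32 windows and in 1.24% of all windows, which says only that these exact letters are not in the windows. Each motif was counted by itself, although TGGGAA can overlap the reverse complement of CCAAT and TCACNCCAC can overlap CACGTG, and a match is a description of the sequence, not a binding site.

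The 4 members with the largest fall between total and c-Kit-high pro-B cells among those with a window were Lss, Mvd, Cyp51 and Fasn, which is why their upstream sequences are shown. Each is the 250 bases before the start, 5′ to 3′ on the gene's strand, and capitals mark CCAAT or its reverse complement ATTGG.
Lss (chr10:76531355-76531604, plus strand): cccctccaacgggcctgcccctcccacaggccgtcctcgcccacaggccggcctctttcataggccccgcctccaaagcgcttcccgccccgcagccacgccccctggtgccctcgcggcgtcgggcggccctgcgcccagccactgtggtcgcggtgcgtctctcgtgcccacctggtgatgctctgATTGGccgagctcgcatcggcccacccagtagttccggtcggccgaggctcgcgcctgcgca
Mvd (chr8:122443423-122443672, minus strand): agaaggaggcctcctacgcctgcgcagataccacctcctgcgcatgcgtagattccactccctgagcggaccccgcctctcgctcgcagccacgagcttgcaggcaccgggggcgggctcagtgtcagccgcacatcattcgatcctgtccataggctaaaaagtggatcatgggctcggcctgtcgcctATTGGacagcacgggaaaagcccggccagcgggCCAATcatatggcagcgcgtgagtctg
Cyp51 (chr5:4104698-4104947, minus strand): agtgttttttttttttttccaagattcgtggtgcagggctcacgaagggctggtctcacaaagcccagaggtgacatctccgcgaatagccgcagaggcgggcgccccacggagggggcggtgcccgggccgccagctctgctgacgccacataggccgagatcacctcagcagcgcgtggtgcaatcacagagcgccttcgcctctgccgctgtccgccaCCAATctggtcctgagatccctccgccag
Fasn (chr11:120824548-120824797, minus strand): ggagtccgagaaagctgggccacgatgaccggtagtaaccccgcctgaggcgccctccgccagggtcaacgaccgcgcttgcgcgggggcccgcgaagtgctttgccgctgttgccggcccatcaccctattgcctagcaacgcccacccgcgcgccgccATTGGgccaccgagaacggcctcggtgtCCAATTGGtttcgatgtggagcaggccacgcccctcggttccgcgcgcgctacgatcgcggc
All 4 hold the letters within 100 bases of the start, once in Lss and Cyp51, 2 times in Mvd and 3 times in Fasn, where 2 of the matches overlap. None of the 4 windows held CACGTG or TGGGAA.

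Wild-type pre-B cells had still lower levels than c-Kit-high controls for most members. Of 31 genes, 21 were lower, 2 higher and 8 not called, with a median log2 difference of -0.64. Among all genes tested 29.8% were called lower and 19.2% higher (49% in either direction), and the median log2 difference was -0.11. The desaturases Fads2 and Fads1 showed the largest falls. Fads2 was at 4.34 and 5.02 RPKM in pre-B cells and at 55.6 and 46.9 RPKM in c-Kit-high controls, 11.0-fold apart (log2 difference -3.20 ± 0.14 SE, adjusted p = 6.21e-09). Fads1, the desaturase of the same route, read 4.69 and 5.23 RPKM against 35.9 and 32.1 RPKM (log2 difference -2.55). Elovl6, which lengthens saturated fatty acids, read 5.13 and 4.85 RPKM against 33.7 and 29.3 RPKM. For all 3 genes the pre-B libraries were the lowest of the 30.

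Of the sterol enzymes, Sqle showed the largest further fall, to 2.64 and 2.63 RPKM from 16.0 and 14.9 RPKM (log2 difference -2.17, adjusted p = 5.11e-08), followed by Cyp51 (-1.65). Stard4, which shuttles cholesterol inside the cell, was at 4.63 and 3.24 RPKM against 14.1 and 13.3 RPKM. Other sterol steps showed no called change: Mvd was at 6.33 and 7.99 RPKM in pre-B cells, Nsdhl at 5.40 and 4.29 RPKM and Ebp at 24.6 and 28.6 RPKM. Higher in pre-B cells were Scd1 and Acly. Scd1 read 43.8 and 39.0 RPKM against 6.64 and 7.14 RPKM, 6.01-fold higher (log2 difference 2.43, adjusted p = 3.07e-08), and Acly 116 and 113 RPKM against 90.4 and 95.3 RPKM (log2 difference 0.30).

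With quantile normalization 5 members were higher and 18 lower, and with median-ratio scaling 4 and 17; the latter moved the median of all genes from -0.11 to 0.03. All 8 granulocyte genes, 5 of 6 tested monocyte genes and all 5 erythroid genes found were called higher in pre-B cells, and all 16 genes of dividing cells tested were called lower, with a summed 625 to 701 RPKM in pre-B cells. The part of these genes in the members' levels was not tested. The pre-B mice were wild-type and carried no Cre, unlike the c-Kit-high controls, and this cannot be told apart from the stage.

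Total pro-B cells with Ikzf1 deleted had less RNA of members from every role. Of 31 genes, 14 were lower, 1 was higher and 16 were not called, with a median log2 difference of -0.43. Among all genes tested, 9.89% were called lower and 13.5% higher (23.4% in either direction), and the median log2 difference was 0.03. The members' sum went from 2303 to 2330 RPKM in controls to 1760 to 1776 RPKM in deleted cells.

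Among the mevalonate enzymes, Acat2, which joins the first pair of acetyl-CoA molecules, fell from 33.0 and 31.5 RPKM to 20.3 and 20.7 RPKM (log2 difference -0.63, adjusted p = 0.0105). Fdps fell from 78.3 and 88.7 RPKM to 53.0 and 54.8 RPKM, and Mvd from 43.8 and 43.6 RPKM to 30.8 and 26.0 RPKM. The kinases of this route were not called: Mvk read 26.4 and 27.3 RPKM in controls and 27.8 and 28.3 RPKM after deletion, and Pmvk 56.2 and 55.3 RPKM and 44.8 and 48.9 RPKM. In the sterol branch 4 of 10 enzymes fell. Dhcr7 showed the largest of these changes, from 67.2 and 68.1 RPKM to 39.5 and 35.2 RPKM, 1.81-fold lower (log2 difference -0.84 ± 0.13 SE, adjusted p = 5.51e-04). Lss fell from 52.7 and 46.4 RPKM to 32.8 and 27.0 RPKM, Sqle from 98.4 and 85.5 RPKM to 61.3 and 65.7 RPKM, and squalene synthase, Fdft1, from 29.7 and 29.6 RPKM to 19.8 and 20.1 RPKM. In each of these 4 genes both deleted libraries were under both controls. With 2 libraries per group this adds no support to the calls, since 29 of 31 members, called or not, had no overlap. The share over all genes is not given here.

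The sensing genes moved in opposite directions. Scap fell from 96.1 and 106 RPKM to 55.6 and 52.7 RPKM, 1.87-fold lower (log2 difference -0.89 ± 0.11 SE, adjusted p = 7.39e-05), the lowest adjusted p among the members. Srebf1 fell from 92.9 and 97.95 RPKM to 59.6 and 54.0 RPKM (log2 difference -0.74, adjusted p = 0.00163). Srebf2 was not called, at 164 and 166 RPKM against 160.3 and 141 RPKM. Insig1 rose from 41.7 and 38.6 RPKM to 73.8 and 78.8 RPKM, 1.90-fold higher (log2 difference 0.91 ± 0.12 SE, adjusted p = 1.39e-04), the only member called higher here. Of the fatty acid genes, Fasn fell from 156 and 167 RPKM to 96.3 and 86.4 RPKM (log2 difference -0.82), Acly from 205 and 196 RPKM to 149 and 153 RPKM, and Fads2 from 173 and 158 RPKM to 116 and 110.3 RPKM. Elovl5 and Scd2 fell with log2 differences of -0.49 and -0.37. Scd1 read 146 and 144 RPKM against 145 and 143 RPKM, with no called difference.

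Dhcr7, Insig1, Scap and Srebf1 kept their calls in all 10 alternative fits of this comparison. Leaving out any 1 of the 4 compared libraries gave fewer called members. The share of all genes called in those fits is not given here. A loss of calls among all genes thus cannot be told apart from one among the members. Sums over 16 genes of dividing cells were 2607 to 2652 RPKM after deletion and 2673 to 2845 RPKM in controls, and granulocyte sums after deletion were 0.147 to 0.733 RPKM, with 6 of 8 genes at 0. Of 10 B-lineage genes 3 were higher and 4 lower after deletion, and endothelial and stromal genes summed to 54.8 to 60.9 RPKM against 80.4 to 112 RPKM; their part in the result was not tested.

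**Figure D3:**
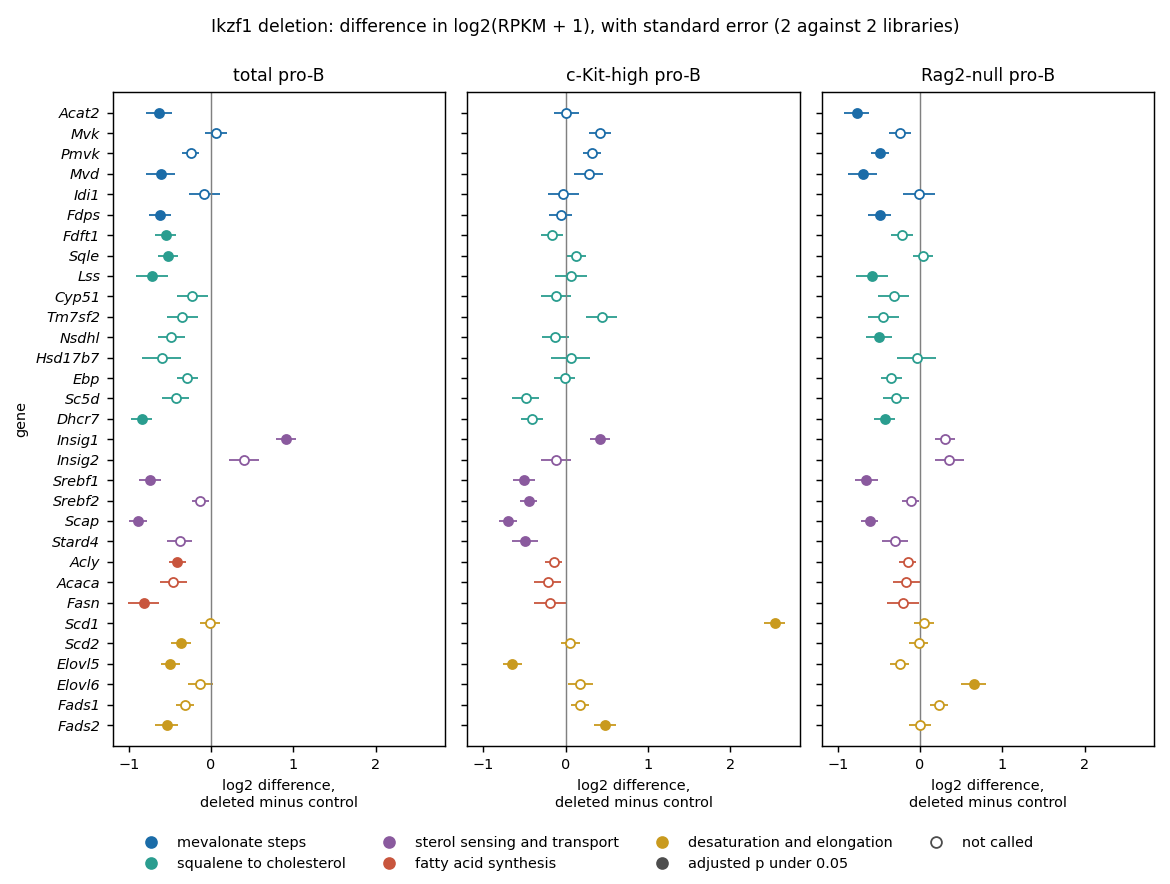
Log2 difference between deleted and control cells for each member in the 3 pro-B settings, with bars of 1 standard error; filled points passed an adjusted p under 0.05 and open points did not. Srebf1 and Scap are the only genes with filled points left of 0 in all 3 panels, and the Scd1 point at 2.54 in the c-Kit-high panel lies far from all others.

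In Rag2-null pro-B cells with Ikzf1 deleted, 9 of 31 members were lower and 1 was higher, with 21 not called and a median log2 difference of -0.24. Among all genes tested 6.84% were called lower and 15.5% higher (22.3% in either direction), and the median log2 difference was 0.06, or -0.05 with median-ratio scaling, which gave 12 lower members and 1 higher. The mevalonate enzymes made up 4 of the 9. Acat2 fell from 21.9 and 24.6 RPKM to 11.9 and 14.7 RPKM (log2 difference -0.77, adjusted p = 0.00354), Mvd from 41.1 and 45.4 RPKM to 27.5 and 25.1 RPKM (-0.70), Fdps from 77.7 and 90.6 RPKM to 59.0 and 60.1 RPKM (-0.49) and Pmvk from 52.3 and 55.2 RPKM to 38.6 and 37.7 RPKM (-0.48). In the sterol branch Lss, Nsdhl, which helps strip methyl groups from the ring, and Dhcr7 fell, with log2 differences of -0.58, -0.50 and -0.43.

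Srebf1 fell from 103 and 84.0 RPKM to 63.0 and 55.0 RPKM, and Scap from 135 and 129 RPKM to 91.4 and 80.5 RPKM (log2 difference -0.61, adjusted p = 0.00145). Elovl6 was the only member higher, at 46.2 and 66.7 RPKM against 33.5 and 36.5 RPKM (log2 difference 0.65, adjusted p = 0.00812). No gene of fatty acid synthesis was called: Fasn read 102 and 157 RPKM in controls, wide apart, and 104 and 115 RPKM after deletion. Acat2, Scap and Srebf1 kept their calls in all 10 alternative fits. The count was 6 without Rag2-null control replicate 2 and 4 without deleted replicate 2, and 4 with the 4 compared libraries alone. Of 16 genes of dividing cells 2 were lower, and 4 of 6 monocyte genes and 5 of 6 endothelial and stromal genes tested were higher, the latter summing to 127 to 189 RPKM against 23.3 to 25.1 RPKM; the part of these in the result was not tested.

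In c-Kit-high pro-B cells with Ikzf1 deleted, 3 members were higher and 5 lower, with 23 not called and a median log2 difference of -0.03. Among all genes tested 11.6% were called higher and 5.6% lower (17.2% in either direction), and the median log2 difference was 0.03. By limma none of the 6 mevalonate enzymes and none of the 10 enzymes from squalene to cholesterol was called, and 2 and 3 of them had an unadjusted p under 0.05, beside 3585 of 11937 genes (30%), about the same share. Scd1 rose from 6.64 and 7.14 RPKM to 41.8 and 48.1 RPKM, 6.52-fold higher (log2 difference 2.54 ± 0.12 SE, adjusted p = 1.02e-07). The deleted c-Kit-high cells thus reached the level of the pre-B cells and stayed under that of total pro-B cells for this gene. Fads2 rose from 55.6 and 46.9 RPKM to 76.8 and 66.5 RPKM (log2 difference 0.48) and Insig1 from 11.0 and 11.1 RPKM to 15.9 and 14.3 RPKM (0.42).

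The 5 lower members were sensing and transport genes and 1 elongase. Scap fell from 83.5 and 92.0 RPKM to 55.6 and 51.5 RPKM (log2 difference -0.70, adjusted p = 6.22e-04), and Elovl5 from 44.4 and 48.1 RPKM to 28.0 and 30.3 RPKM (-0.65, adjusted p = 0.00174). Srebf1 fell from 52.0 and 41.7 RPKM to 33.7 and 31.6 RPKM, Srebf2 from 95.1 and 90.1 RPKM to 71.1 and 64.4 RPKM, and Stard4 from 14.1 and 13.3 RPKM to 9.49 and 9.40 RPKM. Elovl5, Scap and Scd1 kept their calls in all 10 alternative fits. Without the shallow c-Kit-high control replicate 2, 1 member was higher and 4 lower, and the log2 difference of Scd1 was 2.59. The count was also 5 without control replicate 1, 4 without either deleted library, 3 with the 4 compared libraries alone, and with median-ratio scaling 1 member was higher and 7 lower. Granulocyte sums of 125 to 330 RPKM in the deleted libraries lay within the 105 to 679 RPKM of the controls. Of 6 monocyte genes tested 3 were higher, and endothelial and stromal genes summed to 116 to 154 RPKM against 45.3 to 59.5 RPKM; their part in the result was not tested.

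Across the 3 deletions, Srebf1 and Scap were called lower in each setting, 2 of 31 members beside 1.47% of all genes. No member was called higher in each, beside 3.85% of all genes. The 7 members Acat2, Mvd, Fdps, Lss, Dhcr7, Srebf1 and Scap were called lower in both total and Rag2-null pro-B cells, beside 2.87% of all genes. The 10 members Mvk, Idi1, Cyp51, Tm7sf2, Hsd17b7, Ebp, Sc5d, Insig2, Acaca and Fads1 were called in none, beside 60.1% of all genes. The 3 deletions share no library, but a call in one setting and none in another does not show a difference, so the difference between each pair of effects was itself tested with an interaction term.

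The log2 difference after deletion was higher (more positive) in c-Kit-high than in total pro-B cells for 4 members, and none showed the opposite. Of all genes 4.54% were called higher and 2.16% lower, 6.7% in either direction. They were Scd1 (difference of log2 differences 2.55 ± 0.18 SE, adjusted p = 2.74e-05), Fads2 (1.02, adjusted p = 0.00868), Sqle (0.66, adjusted p = 0.0360) and Pmvk (0.57, adjusted p = 0.0438). Fads2 moved in opposite directions, down in total and up in c-Kit-high cells. Sqle was called lower in total cells and was not called in c-Kit-high cells, and Pmvk was called in neither. Only Scd1 and Fads2 were called in every alternative fit of this difference, and the count was 2 without c-Kit-high deleted replicate 1, c-Kit-high control replicate 2 or any 1 of the 4 total pro-B libraries.

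Between Rag2-null and total pro-B cells the effect was higher in Rag2-null cells for Elovl6 (0.78), Sqle (0.56) and Fads1 (0.55), and lower for Insig1 (-0.61), with adjusted p from 0.0298 to 0.0469, beside 8.54% of all genes called higher and 4.55% lower (13.1% in either direction). Insig1 read 42.2 and 43.3 RPKM in Rag2-null controls and 57.8 and 48.3 RPKM after deletion, against the 1.90-fold rise in total pro-B cells. Leaving out any 1 of the 4 total pro-B libraries left 0 members called by limma, where 7 of 31 had an unadjusted p under 0.05 with all libraries, beside 3000 of 11937 genes (25.1%). The count was 1 without Rag2-null control replicate 1 or deleted replicate 2 and 2 without deleted replicate 1, and with median-ratio scaling 1 member was higher and 1 lower. Between Rag2-null and c-Kit-high cells, Scd1 (-2.49), Mvd (-0.98) and Pmvk (-0.80) were lower and none higher, beside 2.76% of all genes lower and 3.57% higher (6.33% in either direction). Quantile normalization gave 1 higher and 2 lower, and with the compared libraries alone Scd1 was the 1 member called. Without the shallow c-Kit-high control replicate 2 the differences were -2.54 for Scd1, -0.75 for Mvd and -0.87 for Pmvk. The same libraries enter more than 1 of these differences.

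**Figure D4:**
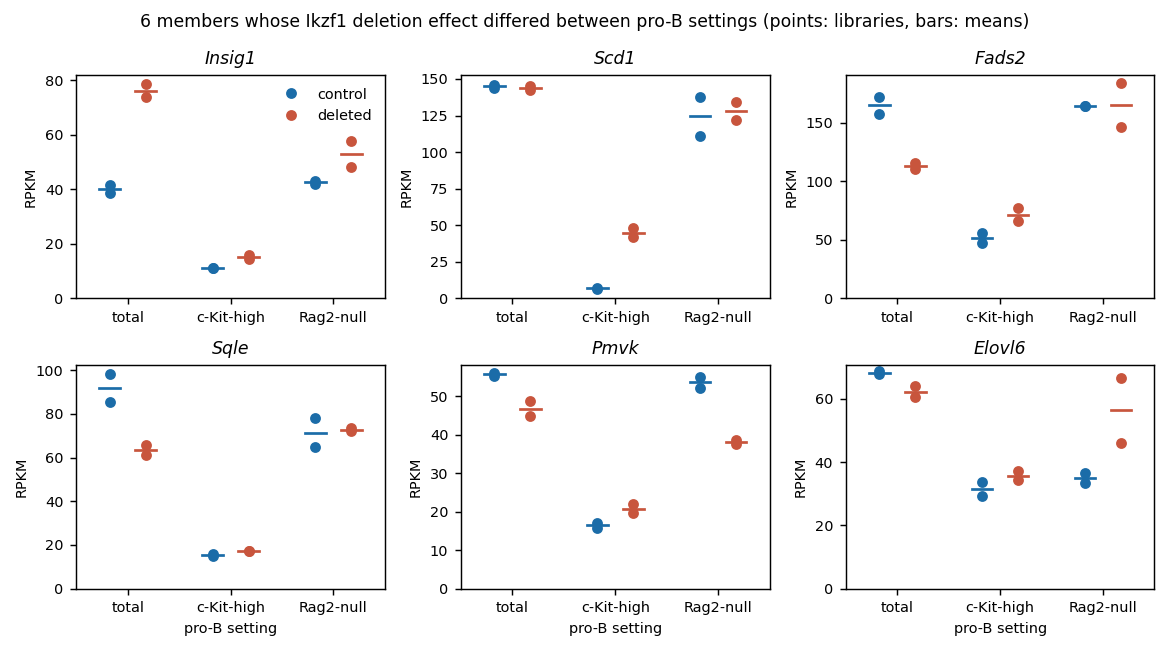
RPKM of 6 members in control and deleted libraries of total, c-Kit-high and Rag2-null pro-B cells; points are libraries and bars are group means. Scd1 is near 145 RPKM in all 4 total pro-B libraries, under 8 RPKM in the c-Kit-high controls and above 40 RPKM in the c-Kit-high deleted libraries.

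The members' sum was 2051 to 2255 RPKM in Rag2-null controls and 2303 to 2330 RPKM in Rag2-intact controls. As a share of all RPKM it was 0.397% to 0.439% against 0.540% to 0.547%, which also depends on the total RPKM of each library. Of 31 members, 3 were higher and 6 lower, with a median log2 difference of -0.10, beside 10.9% of all genes called higher and 20.7% lower (31.6% in either direction) and a median of -0.08. The members' shares and median were thus close to those of all genes. Ebp read 83.1 and 84.6 RPKM against 50.5 and 50.8 RPKM (log2 difference 0.72, adjusted p = 0.00143), Mvk 39.4 and 39.4 RPKM against 26.4 and 27.3 RPKM, and Scap 135 and 129 RPKM against 96.1 and 106 RPKM. Elovl6 was the most lowered, at 33.5 and 36.5 RPKM against 67.8 and 68.9 RPKM (log2 difference -0.95). With median-ratio scaling, where the median of all genes was 0.02, 5 members were higher and 1 lower. No member kept its call in all 10 alternative fits. Leaving out 1 library moved the count of called members up or down, depending on the library. The share of all genes called in those fits is not given here. Endothelial and stromal genes summed to 23.3 to 25.1 RPKM in Rag2-null controls and 80.4 to 112 RPKM in Rag2-intact ones, with 3 of 6 called lower, and their part was not tested. Library numbers separate the Rag2-null from the Rag2-intact libraries, so the genotype and any batch cannot be told apart. The total pro-B controls serve in this comparison, in the c-Kit-high one and in the pro-B deletion, and the c-Kit-high controls in 3 comparisons as well.

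In Ebf1(-/-) pre-pro-B cells, knock-down of Ikzf1 moved members by small amounts, mostly upward. With 8 hairpin libraries against 8 controls, 7 of 31 members were higher, 1 was lower and 23 were not called, with a median log2 difference of 0.17. Among all 10744 genes tested 13.4% were called higher and 6.04% lower (19.4% in either direction), and the median log2 difference was 0.01. The 16 libraries form 4 runs of consecutive library numbers with 1 library of each construct per run, and libraries of a run deviated together. With the run as a block, 19 members were higher and 2 lower, beside 28.8% and 23.1% of all genes. Runs held a median of 53.5% of a member's spread over the 16 libraries, and knock-down against control held 16.4%.

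Fads1 changed most. It read 67.4, 64.1, 65.2 and 59.8 RPKM with the empty vector, 72.4, 65.3, 63.6 and 56.8 RPKM with Ren713, 111, 102, 90.3 and 92.8 RPKM with Ik4056, and 105, 83.0, 90.1 and 87.0 RPKM with Ik2709. All 8 hairpin libraries were above all 8 controls (1.48-fold, log2 difference 0.56 ± 0.07 SE, adjusted p = 2.90e-05). It was 1 of 31 members without overlap between the groups, beside 5.51% of all genes higher and 1.55% lower without overlap, so this is no more frequent among the members. Fads2 read 184, 183, 214 and 132 RPKM with the empty vector, 194, 168, 218 and 143 RPKM with Ren713, 256, 252, 277 and 201 RPKM with Ik4056, and 251, 219, 260 and 180 RPKM with Ik2709. The groups overlap through the lower level of the last run, within which the difference was 0.47, and 0.31 to 0.42 within the other runs (log2 difference 0.41 over all, adjusted p = 0.0255). Fasn was the lower member, at 147 to 177 RPKM in the 8 controls and 107 to 156 RPKM in the 8 hairpin libraries (log2 difference -0.23, adjusted p = 0.0292), and it was lower in all 4 runs.

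The other higher members were sterol genes. Tm7sf2, a sterol reductase, had a mean of 20.6 ± 2.71 RPKM (SD, n = 8) with hairpins and 15.7 ± 2.10 RPKM (SD, n = 8) in controls, a log2 difference of 0.37. Stard4 (0.34), Sqle (0.31), Cyp51 (0.26) and Srebf2 (0.23) were also called higher. Of the 8 members called in the knock-down without the block, only Fads1 kept its call in all 25 alternative fits. None of the 6 mevalonate enzymes was called without the block; with it, Mvk, Pmvk, Idi1 and Fdps were called higher, as were Fdft1, Lss, Nsdhl, Ebp, Sc5d, Dhcr7, Insig1 and Scd1, and Acaca, the acetyl-CoA carboxylase, was called lower with Fasn. In the comparison within runs, 19 members were higher in all 4 runs and 2 were lower in all 4, beside 31% and 24.9% of all genes. Srebf1 and Scap, lower in the 3 pro-B deletions, were not called here with or without the block: Srebf1 was at 92.3 to 99.2 RPKM in controls and 88.7 to 110.1 RPKM with hairpins, and Scap at 64.4 to 87.4 RPKM and 65.3 to 92.5 RPKM.

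Between the 2 Ikzf1 hairpins limma called 0 of 31 members, with 2 at an unadjusted p under 0.05, beside 3.33% of all genes called (2.62% higher and 0.707% lower) and 11.3% at an unadjusted p under 0.05; with the run as a block 2 members were higher with Ik4056 (Scap 0.31 and Fasn 0.21) and 2 lower (Insig1 -0.23 and Ebp -0.18), beside 15.1% of all genes higher and 7.33% lower, so the members' share was under that of all genes. Between the 2 controls limma called 0 members, 0 at an unadjusted p under 0.05, beside 0% and 0.54% of all genes. With the block it called 0 members, beside 0.0838% of all genes (1 higher and 8 lower). With Ren713 alone as the control 2 members were called in the knock-down, with the empty vector alone 3, and with median-ratio scaling 3 were higher and 1 lower. The count was 4 without Ik4056 replicate 1, 5 without Ik2709 replicate 1 and 5 without Ren713 replicate 2. Monocyte genes summed to 11.8 to 18.2 RPKM in controls and 96.3 to 132 RPKM with hairpins, with 6 of 7 called higher and 1 lower, and granulocyte genes to 21.7 to 90.4 RPKM and 114 to 429 RPKM. Of 16 genes of dividing cells 3 were lower. The part of these lists in the members' change was not tested.

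**Figure D5:**
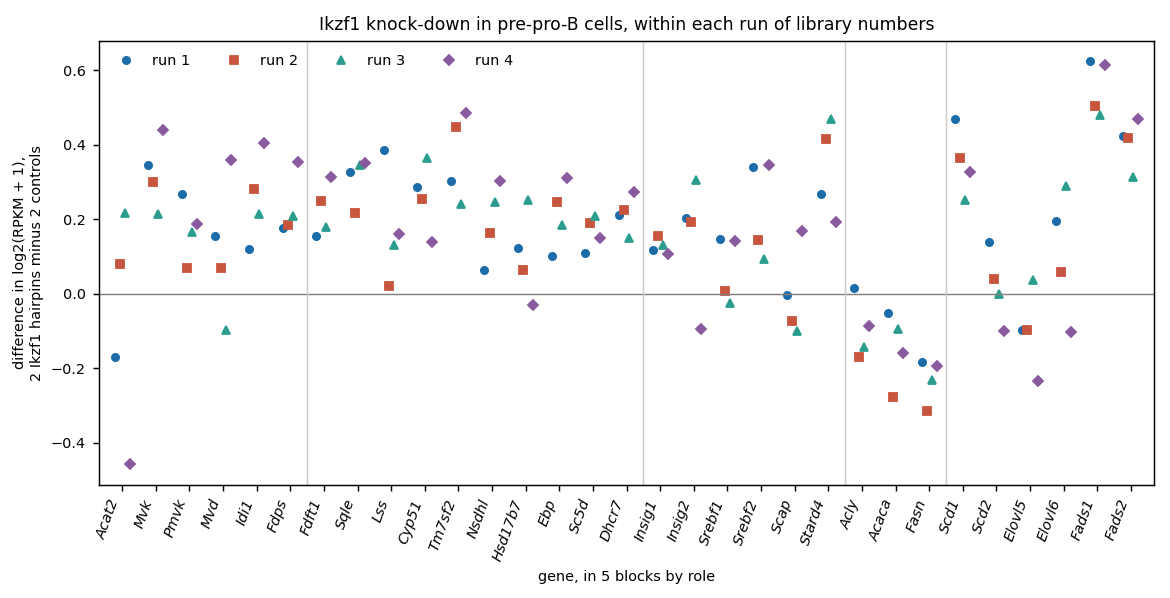
Difference in log2(RPKM + 1) between the 2 Ikzf1 hairpins and the 2 controls for each member within each of the 4 runs of library numbers. All 4 points lie above 0 for 19 members and below 0 for Acaca and Fasn, and the points of Fads1 lie between 0.48 and 0.63.

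Genes beside the members were counted from lists of the same pathways. Of 8 other genes of sterol and isoprenoid steps, 1 was higher and 3 lower in c-Kit-high than in total pro-B controls (median log2 difference -0.17), and 0 were higher and 3 lower in pre-B cells than in c-Kit-high controls. In the pro-B deletion 1 was higher and 1 lower, in the c-Kit-high and Rag2-null deletions limma called none, and in the knock-down 2 were higher. Sc4mol, a sterol demethylation enzyme, was at 37.8 to 41.7 RPKM in total pro-B controls, 7.85 to 10.9 RPKM in c-Kit-high controls (log2 difference -1.99, adjusted p = 3.48e-06) and 5.58 to 5.70 RPKM in pre-B cells. In the knock-down Sc4mol was called higher (log2 difference 0.36, adjusted p = 0.0118), with overlapping groups. Fntb, a subunit of the enzyme that attaches farnesyl groups to proteins, went the other way from most members. It was at 9.95 to 19.9 RPKM in total pro-B controls, 27.0 to 27.6 RPKM in c-Kit-high controls (log2 difference 0.90, adjusted p = 0.0151) and 27.87 to 27.9 RPKM in deleted total pro-B cells (0.93, adjusted p = 0.0261). Of 3 SREBP processing genes, Sec24d, a coat protein of the vesicles that export Scap from the endoplasmic reticulum, was the 1 called in the pro-B deletion, at 8.67 to 10.4 RPKM in controls and 3.66 to 3.77 RPKM in deleted cells (log2 difference -1.16).

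Of 10 tested genes of sterol storage, efflux and LXR targets, Abca1, the pump that exports cholesterol, was called higher in all 3 deletions. It went from 0.503 to 0.834 RPKM to 1.82 to 2.66 RPKM in total pro-B cells (log2 difference 0.95), from 8.73 to 9.14 RPKM to 17.8 to 18.8 RPKM in c-Kit-high cells (0.96), and from 0.0975 to 0.585 RPKM to 13.6 to 15.1 RPKM in Rag2-null cells (3.54, adjusted p = 2.24e-07). The effect was larger in Rag2-null than in total pro-B cells (difference 2.59, adjusted p = 1.34e-04). In the knock-down it was also called higher (0.71). The list as a whole had 2 genes up and 1 down in total pro-B cells, 2 and 1 in c-Kit-high cells, and 3 and 2 in Rag2-null cells. Mylip, an LXR target, was called higher in total (0.89) and Rag2-null cells (1.10). Abcg1 of the same list went the other way. It fell from 29.4 to 31.8 RPKM to 13.3 to 15.2 RPKM in total pro-B cells (log2 difference -1.05). It was also called lower in c-Kit-high cells (-0.69), and Npc2 was called lower in Rag2-null cells (-1.04). The list thus did not move in 1 direction.

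Of 15 tested genes of fatty acid supply and activation, 0 were higher and 2 lower in the pro-B deletion, 5 and 0 in c-Kit-high cells and 3 and 3 in Rag2-null cells. Fads3, a relative of Fads1 and Fads2, fell in total pro-B cells, from 4.48 to 6.49 RPKM to 1.41 to 1.85 RPKM, and rose in Rag2-null cells, from 2.06 to 2.39 RPKM to 11.1 to 22.5 RPKM, with a difference between the effects of 3.68 (adjusted p = 1.18e-04). It also rose in c-Kit-high cells (log2 difference 1.502) and in the knock-down (1.13). Slc25a1, which carries citrate out of mitochondria for lipid synthesis, was at 226 to 247 RPKM in total pro-B controls, 88.4 to 89.5 RPKM in c-Kit-high controls and 26.8 to 27.8 RPKM in pre-B cells. Of 11 tested genes of fatty acid oxidation, 2 were higher and 1 lower in the pro-B deletion. Cpt1a, which admits fatty acids to mitochondria, was the lower one, from 14.01 to 14.17 RPKM to 5.86 to 5.91 RPKM; against total pro-B controls it was higher in c-Kit-high controls, at 41.7 to 59.0 RPKM, and it was lower in the knock-down (log2 difference -0.79).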

How the data were processed

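Polyadenylated RNA was sequenced with strand-specific single-end libraries, per the labels' protocols. The submitters' processing notes name TopHat 1.4.1, HTSeq 0.5.3, DESeq 1.8.3 and the mm9 genome, without saying what each was used for. The values deposited by the authors are RPKM for 21025 gene models. Low values lie partly on steps worth 1 read, and the step size gave a rough depth of 2.3 to 36.5 M reads in 26 of 30 libraries, where 53.1% to 77.6% of low values lay on the steps. No count test was run, and depth sets how precise low genes are.

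Groups came from the labels. Values were tested two-sided as log2(RPKM + 1), which understates changes of low genes such as Idi1, by limma 3.58.1 (R 4.3.3; trended, robust variances). A gene entered with RPKM of at least 1 in at least 2 libraries. The pro-B and pre-B fit held 14 libraries in 7 groups and 11937 genes, the knock-down fit 16 libraries in 4 groups and 10744 genes. Calls had a Benjamini-Hochberg adjusted p under 0.05. On simulated data with 200 changed genes, the pro-B deletion comparison recovered 80% of genes changed by log2 1 and the knock-down 93%, and 6.4% and 5.9% of the called genes were unchanged ones. The simulated noise was independent between libraries, without shared deviations of runs, and the changes were rises in genes that were not low. In the knock-down no member changed by more than 0.56, so these rates need not hold for the members. Tables and plots used Python 3.11.15, pandas 2.3.3, numpy 2.4.6 and matplotlib 3.10.9.

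The members and lists were chosen with earlier results of these data known. All members are described, with Ikzf1 and up to 3 called genes per related list and comparison. The knock-down libraries fall into runs of consecutive library numbers. Across genes, deviations from group means correlated in all 24 pairs of libraries of a run, with r of at least 0.52 (median 0.775), while pairs from other runs had a median r of -0.22, so the run pairs the libraries. No 2 libraries were identical. Alternatives changed the pseudocount to 0.1, the filter, the scaling, the libraries of the fit and single replicates.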

Additional observations from a re-analysis of the deposited data

Results flagged for a closer look

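In 124 groups of 4 knock-down libraries tested (31 genes and 4 constructs), 4 had 1 library far from the other 3; chance flags about 1 group in 20. In Ik2709 replicate 4, Sc5d was at 17.8 RPKM with the next library at 13.9 RPKM, Acaca at 5.89 RPKM with the next at 4.48 RPKM, and Elovl6 at 17.7 RPKM with the next at 9.34 RPKM. That library is of run 4, where the control mean of each of these genes was also the highest of the runs. Control means in run 4 were 14.6 RPKM for Sc5d, 6.865 RPKM for Acaca and 17.6 RPKM for Elovl6. In the other runs they were at most 13.8, 6.08 and 9.28 RPKM. The part of the run was not tested. In Ik4056 replicate 1, Insig2 was at 5.01 RPKM with the next at 3.64 RPKM.

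The Ikzf1 deletion effect differed between settings for 11 tests of members, by the interaction term of limma, in log2 units. In Rag2-null minus total pro-B cells it was 0.78 for Elovl6, 0.55 for Fads1, 0.56 for Sqle and -0.61 for Insig1. These are 4 of 31 members, beside 13.1% of all genes, about the same share. In c-Kit-high minus total pro-B cells it was 1.02 for Fads2, 0.57 for Pmvk, 2.55 for Scd1 and 0.66 for Sqle, 4 members beside 6.7% of all genes. In Rag2-null minus c-Kit-high cells it was -0.98 for Mvd, -0.80 for Pmvk and -2.49 for Scd1, 3 members beside 6.33% of all genes. How these counts moved in alternative fits is given below.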

How the results depend on the processing

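Of 157 recomputed counts over the 12 comparisons, 112 were within 1.5 times the count as designed, and no called member changed sign under any alternative. With the compared libraries alone, the called members numbered 3 for the c-Kit-high deletion, 4 for the Rag2-null deletion, 2 for the Rag2-null minus pro-B effect and 1 for the Rag2-null minus c-Kit-high effect. With all 30 libraries in 1 fit they numbered 5 for the c-Kit-high deletion, 2 for Rag2-null against Rag2-intact controls, 1 and 2 for the effect differences Rag2-null and c-Kit-high minus pro-B, and 1 for Ik4056 against Ik2709. With median-ratio scaling they numbered 2 for the Rag2-null minus pro-B effect, 5 for Rag2-null minus c-Kit-high and 4 for the knock-down. With the replicate block they numbered 21 for the knock-down and 4 for Ik4056 against Ik2709, and the block changed no other call count. With 1 control construct the knock-down had 2 (Ren713) or 3 (empty vector). The causes were not tested. Leaving out 1 replicate at a time gave 6 to 10 members for the pro-B deletion, 4 to 5 for c-Kit-high, 4 to 9 for Rag2-null, 4 to 9 for the knock-down, 0 for either comparison of constructs, 20 to 23 for pre-B, 29 for c-Kit-high against total, 2 to 13 for Rag2-null against Rag2-intact, and 0 to 3, 2 to 5 and 2 to 5 for the effect differences Rag2-null minus pro-B, c-Kit-high minus pro-B and Rag2-null minus c-Kit-high. A group left with 1 library is assumed to vary like the others. The shares of all genes called in the alternative fits are not given beside these counts. The counts thus do not show whether members lost calls more often than other genes. Summing the rows of a symbol was not run, since each member has 1 row. Depth limits the lowest member, Idi1, and the c-Kit-high comparisons, where 1 control library had 2.3 M reads.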
